A study of Mus musculus with 18 samples.

Results

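Laminin-332 and the hemidesmosome anchor epithelial cells to the basement membrane, and 9 of their genes are described here among the 55487 genes counted in mouse ileum. The genes were selected by name (*Lamb3*, *Lama3*, *Lama5*, *Lamb1*, *Itga6*, *Itgb4*, *Plec*, *Dst* and *Col17a1*), and the selection was made with the genotype comparisons in view, in which *Lamb3* was already known to differ. Their genotype values are therefore a description and carry no test, whereas sex and the relations between libraries of one genotype were not used to select them.

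RNA was sequenced from whole-thickness ileum of 18 C57BL6/J littermates, 6 in each of 3 groups, with 1 library per mouse. IEC-*Ppara* mice, heterozygous or homozygous, carried 1 or both copies of CAG-*Ppara*,-*EGFP*, a Cre-invertible *Ppara* and EGFP cassette inserted in a safe harbor at *Col1a1*, together with *Villin-CreERT2*, whose promoter is active in intestinal epithelium. Controls carried the cassette without Cre, in a copy number not given per mouse in the sources used here, so the presence of Cre and the induction of *Ppara* cannot be told apart. All 3 groups ate chow and received tamoxifen at 100 mg/kg on 3 consecutive days from 8 to 13 weeks of age, and ileum was taken 2 weeks after the last dose. The controls were 3 females and 3 males, and each IEC-*Ppara* group was 2 females and 4 males.

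Total counts ranged from 38528522 to 50376371 per library, and *Xist* separated the 7 libraries labelled female from the 11 labelled male. *Ppara*, the induced gene and the check of the labels, measured 38.1 ± 8.40 CPM (counts scaled to the total of the library) in controls, 141 ± 35.4 in heterozygous and 216 ± 35.5 in homozygous ileum (mean ± SD, n = 6 each). The epithelial markers were present at like levels in every group, with a mean log2 CPM of 9.53 to 9.93 over the 18 libraries. The gut wall differed more, because the mean log2 CPM of 10 smooth muscle markers ran from 4.63 to 8.16 in controls, from 4.93 to 7.66 in heterozygous and from 7.62 to 8.77 in homozygous libraries. Of the 8 enteric neuron and glia markers tested, 1, the receptor tyrosine kinase gene *Ret*, rose in homozygous ileum (log2 fold change 0.90, SE 0.12, edgeR adjusted p = 0.000465), and it did not pass in heterozygous ileum. The 10 B cell markers were high in 4 libraries (mean log2 CPM 3.27 to 5.86), namely control replicates 2 and 3, heterozygous replicate 2 and homozygous replicate 1, and the other 14 libraries lay between 0.138 and 1.11. Because tissue was taken whole, fewer cells of a type and less RNA per cell cannot be told apart in any value below.

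Laminins are trimers of an α, a β and a γ chain that polymerize into basement membrane sheets. Laminin-332 contains the α3 and β3 chains, encoded by *Lama3* and *Lamb3*, and is the ligand of integrin α6β4, whose subunits are encoded by *Itga6* and *Itgb4*. In stratified epithelia, plectin (*Plec*) and the epithelial form of dystonin (*Dst*) tie integrin β4 to keratin filaments and collagen XVII (*Col17a1*) spans the membrane, forming the type I hemidesmosome. Intestinal epithelium is known for type II hemidesmosomes, which use integrin α6β4 and plectin and lack the collagen XVII and dystonin plaque. *Lama5* and *Lamb1* encode the α5 and β1 chains, which with γ1 form laminin-511, a main laminin of the gut basement membrane.

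*Lamb3* lies on chromosome 1 at 193207699 to 193343878 on the plus strand (GRCm38, the build of the count files), with 34 merged exons and 6612 exon bases. Its range overlaps those of 6 other annotated genes, with which it shares 0 exon bases. *Lama3* shares 197 exon bases with other genes, *Plec* 205 and *Dst* 1493. The partners of *Lama3* and *Dst* lie on the opposite strand, and how reads there were assigned depends on the strand setting of the counting, which is not given in the sources used here. The partner of *Plec* lies on the same strand, so reads in their shared bases cannot be told apart by strand. The 180 bases just before an annotated start of the 2 β chain genes are shown because *Lamb3* was the gene that differed between genotypes and *Lamb1* encodes the alternative β chain. The windows are chr1:193301813-193301992 for *Lamb3* and chr12:31265054-31265233 for *Lamb1* (RefSeq, GRCm38.p6, plus strand), with CG dinucleotides in capitals. The *Lamb3* stretch precedes a start that RefSeq gives at an exon beginning at 193301993, which lies inside the gene as the count files annotate it, and the region before the gene's first base in those files was not searched.
Lamb3: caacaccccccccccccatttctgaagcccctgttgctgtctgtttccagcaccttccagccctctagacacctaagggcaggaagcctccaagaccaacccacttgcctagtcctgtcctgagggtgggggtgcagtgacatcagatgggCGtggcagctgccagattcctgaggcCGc
Lamb1: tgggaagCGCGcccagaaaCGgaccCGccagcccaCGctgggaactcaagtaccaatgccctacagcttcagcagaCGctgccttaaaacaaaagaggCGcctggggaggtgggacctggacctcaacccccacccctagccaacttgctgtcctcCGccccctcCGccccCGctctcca
The *Lamb3* stretch held 2 CG dinucleotides and the *Lamb1* stretch held 10.

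RefSeq start-site windows of 300 bases were matched by symbol for 5 of the 9 genes, giving 7 windows. The 2 *Lamb3* windows held 2 and 5 CG dinucleotides, both below the median of 7 over all 32851 windows. The *Lama5* window held 24, the *Lamb1* window 18 and the upstream *Dst* window 31, whereas the second *Dst* window held 6 and the *Col17a1* window 5. The nuclear receptor half-site AGGTCA, searched on both strands, was in 0 of the 7 windows and in 16.3% of all windows. Its direct repeat with 1 base between the copies (AGGTCANAGGTCA), which contains the half-site, was in 0 of the 7 and in 0.0396% of all. The AP-1 motif TGANTCA was in 0 of the 7 and in 7.81% of all. For the 9 genes only these 7 windows were searched.

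*Lamb3*, the β3 chain of laminin-332, showed the widest separation of the 9 genes. In control libraries *Lamb3* was lowest at 104 CPM, had a median of 151 and was highest at 215 CPM. In heterozygous libraries it ran from 207 through a median of 309 to 384 CPM. In homozygous libraries it ran from 324 through 373 to 491 CPM. Every homozygous library lay above every control library, 1 heterozygous library (207 CPM) fell below the highest control, and the 2 IEC-*Ppara* groups overlapped. Mean levels were 156 ± 46.4 in control, 302 ± 71.9 in heterozygous and 388 ± 63.6 CPM in homozygous ileum (SD, n = 6). The edgeR fit put *Lamb3* 2.49-fold above control in homozygous ileum (log2 1.32, SE 0.20) and 1.97-fold above control in heterozygous ileum (log2 0.98, SE 0.20), with the same control libraries in both. Homozygous and heterozygous ileum differed by 0.34 on the log2 scale (SE 0.20).

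**Figure D1:**
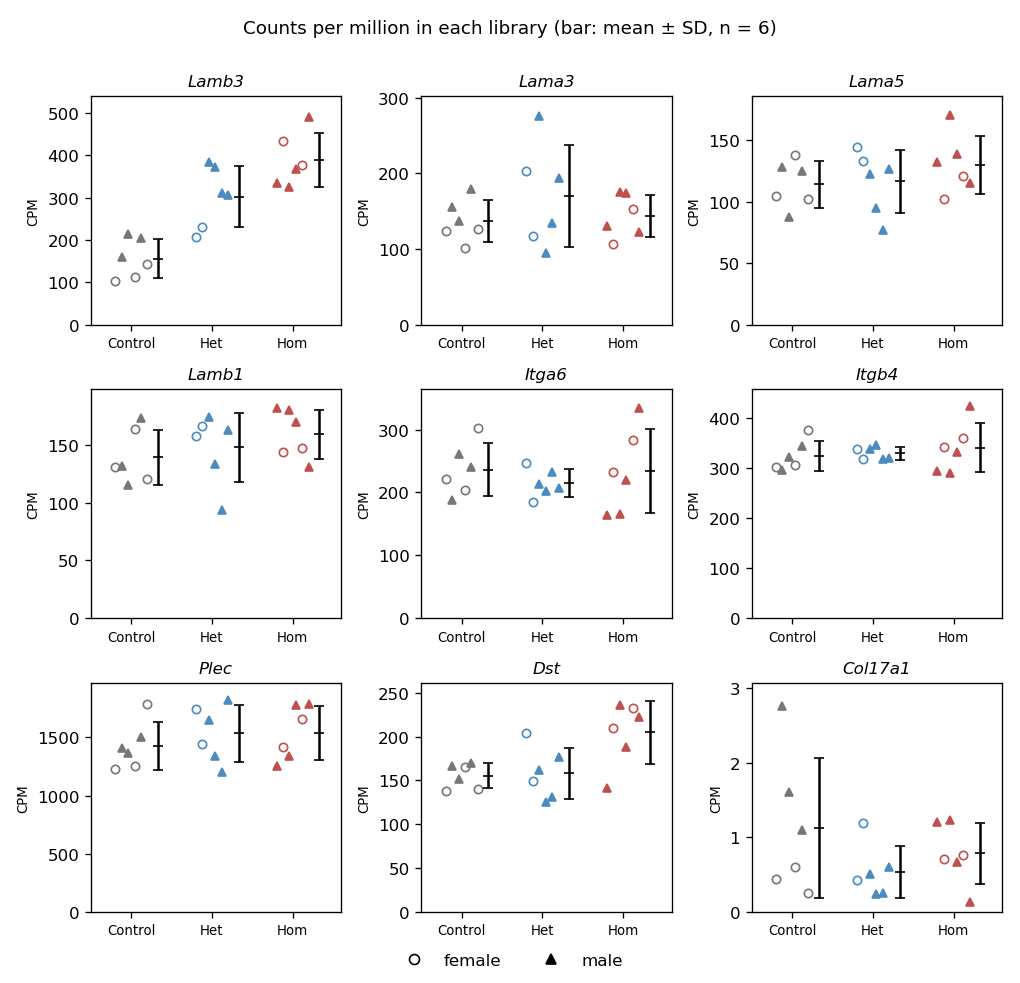
CPM of each of the 9 genes (vertical axis from 0) in control, heterozygous (Het) and homozygous (Hom) IEC-Ppara libraries, with open circles for females, filled triangles for males and bars for mean ± SD (n = 6). Lamb3 libraries of the homozygous group (324 to 491 CPM) all lie above the controls (104 to 215 CPM), while the other 8 genes overlap between groups.

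Of the 9 genes, 8 passed the expression filter (CPM above 3 in at least 4 libraries) and entered the fit across 12645 protein-coding genes. *Lamb3* was the 1 of 8 called at an adjusted p under 0.05 in homozygous against control ileum, where 0.411% of all tested genes were called. It was likewise the 1 of 8 called in heterozygous against control ileum, where 0.293% of genes were called. The heterozygous call was less stable, because it was lost on leaving out any 1 of 10 of the 18 libraries, on using only the 12 libraries compared (log2 0.98), and, in a fit added after the data were seen, without the 4 libraries rich in B cell markers (log2 1.21). A block for replicate number, which did not pair the libraries, also ended the call (log2 1.00). Between homozygous and heterozygous ileum 0 of 8 were called by edgeR and by DESeq2, against 0.00791% of all genes by edgeR, and 1 of the 8 had an unadjusted p under 0.05, beside 7.61% of all tested genes. CPM ranges of homozygous and control libraries did not overlap for 1 of the 8 genes, *Lamb3*, and for 0.854% of all genes. Ranges of heterozygous and control libraries did not overlap for 0 of 8 and 0.467% of all genes, and those of homozygous and heterozygous libraries for 0 of 8 and 0.269%. These shares are given as background to a list chosen by the same contrast. The calls of *Lamb3* and their stability are likewise a description of a chosen gene and not a test of it.

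The α chain of laminin-332 did not separate by genotype. *Lama3*, the α3 chain that binds the integrin, spanned 100.8 to 180 CPM in control libraries, 95.3 to 276 CPM in the heterozygous group and 106 to 175 CPM in the homozygous group. The heterozygous libraries of *Lama3* thus spread beyond both other groups at either end. Its log2 differences from control were 0.06 (SE 0.21) in homozygous and 0.34 (SE 0.21) in heterozygous ileum. The heterozygous difference ranged from 0.15 to 0.47 on leaving out each library.

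Per kilobase of exon, the RNA ratios of *Lamb3* to its α partner and to the alternative β chain moved with *Lamb3*. Because *Lamb3* was chosen for its genotype difference, these ratios largely restate that difference and are no second result. Whether the paired genes are expressed in the same cells was not tested. The ratio of *Lamb3* to *Lama3* levels (CPM per kb) was 1.84 ± 0.394 in control, 3.30 ± 1.67 in heterozygous and 4.62 ± 1.56 in homozygous libraries. All homozygous ratios (3.01 to 6.64) lay above all control ratios (1.35 to 2.55). The ratio of *Lamb3* to *Lamb1* levels was 1.73 ± 0.621 in control, 3.23 ± 1.19 in heterozygous and 3.78 ± 1.13 in homozygous libraries, and the homozygous (2.69 to 5.60) and control ranges (1.02 to 2.79) overlapped. The ratio of the integrin subunits, *Itgb4* to *Itga6*, was 1.81 ± 0.181, 2.01 ± 0.205 and 1.96 ± 0.293 in the same order of groups, with ranges that overlapped.

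**Figure D2:**
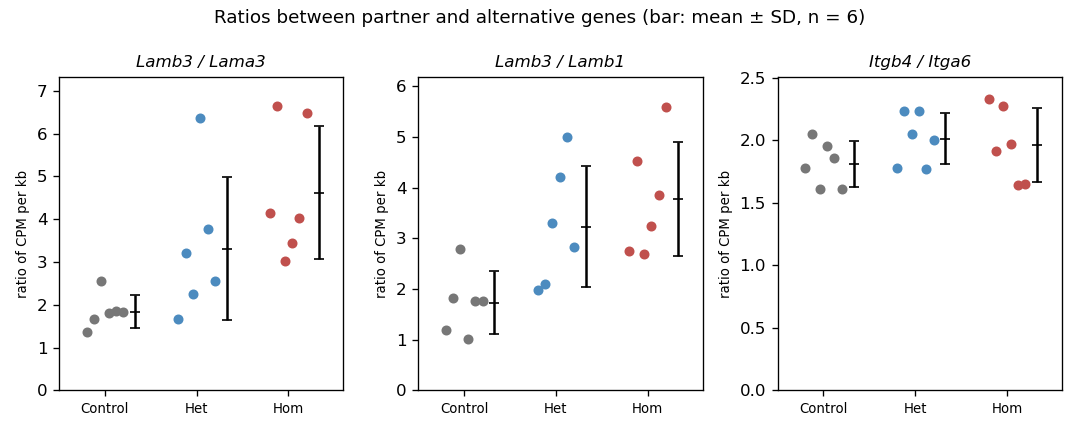
Ratios of levels per kilobase of exon (vertical axes from 0) of Lamb3 to Lama3, Lamb3 to Lamb1 and Itgb4 to Itga6 in control, heterozygous (Het) and homozygous (Hom) libraries, 1 point per library, bars for mean ± SD (n = 6). Mean Lamb3 to Lama3 is 1.84 in controls and 4.62 in homozygous libraries, mean Lamb3 to Lamb1 is 1.73 and 3.78, and the means of Itgb4 to Itga6 lie between 1.81 and 2.01.

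The receptor and its linker overlapped across genotypes. *Itgb4*, the signalling subunit with the long cytoplasmic tail that binds plectin, measured 296 to 374 CPM in control, 317 to 345 in heterozygous and 289 to 424 in homozygous libraries. *Itga6*, its partner, measured 188 to 303, 185 to 246 and 165 to 335 CPM. The homozygous libraries were the most spread for both subunits, with the highest value of each in homozygous replicate 6. *Plec* was the most abundant of the 9 genes at 1424 ± 205, 1534 ± 244 and 1538 ± 230 CPM. The homozygous to control log2 differences were 0.07 for *Itgb4* (SE 0.10), -0.02 for *Itga6* (SE 0.18) and 0.11 for *Plec* (SE 0.13). That of *Plec* ranged from 0.058 to 0.22 on leaving out each library.

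*Dst* encodes several dystonin forms, of which the epithelial form belongs to hemidesmosomes and others to neurons and muscle, and the gene counts do not separate them. It measured 138 to 170 CPM in control, 126 to 204 in heterozygous and 141 to 236 CPM in homozygous libraries. In homozygous ileum 5 of 6 libraries (189 to 236 CPM) lay above every control and the sixth, replicate 1, lay within them. The log2 difference was 0.41 (SE 0.12) for homozygous and 0.06 (SE 0.12) for heterozygous against control. Of the alternatives run, *Dst* passed the threshold for homozygous against control only on leaving out that homozygous library (log2 0.49). For 10 of 10 smooth muscle markers the log2 difference was also positive in homozygous ileum (median 0.57, 0 called by edgeR), as it was for 8 of 8 enteric neuron and glia markers (median 0.58, 1 called). Within genotypes *Dst* did not pass with the neuron and glia score (r = 0.30, permutation p = 0.160, adjusted p = 0.418; rho = 0.49, p = 0.0375, adjusted p = 0.172). Its strongest score relation was against the epithelial markers, which passed by rank (rho = -0.67, permutation p = 0.00269, adjusted p = 0.0277) and not by Pearson's r (r = -0.59, permutation p = 0.0162, adjusted p = 0.145). Leaving out the 2 farthest libraries gave r = -0.57, and TMM log2 CPM gave r = -0.26 over all 18. The *Dst* difference was 0.38 with the smooth muscle score as a covariate, a fit added after the data were seen.

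*Lama5* and *Lamb1*, chains of the general gut basement membrane, also overlapped. *Lama5* measured 87.3 to 138 CPM in control, 77.3 to 145 in heterozygous and 102 to 171 in homozygous libraries. *Lamb1* measured 116 to 173, 93.7 to 175 and 131 to 182 CPM. Their homozygous to control log2 differences were 0.19 (SE 0.13) and 0.20 (SE 0.12), and that of *Lama5* ranged from 0.11 to 0.25 on leaving out each library. *Col17a1* failed the filter, with 6 to 139 reads per library and means of 1.13 ± 0.941, 0.535 ± 0.351 and 0.784 ± 0.407 CPM. Without the filter its log2 differences from control were -0.52 (SE 0.53) in homozygous and -1.04 (SE 0.54) in heterozygous ileum. The B cell markers lay in the same direction (median log2 -2.79 in homozygous and -1.37 in heterozygous against control, 0 called by edgeR), and the 2 highest control values of *Col17a1*, 2.76 and 1.61 CPM, were in the control libraries rich in B cell markers. In an unfiltered fit without the 4 libraries rich in B cell markers, added after the data were seen, the *Col17a1* differences from control were 0.23 (SE 0.52) in homozygous and -0.52 (SE 0.52) in heterozygous ileum, so that the first turned sign. Over the other 14 libraries, after subtracting genotype means, the r of *Col17a1* with the B cell score was 0.27 (permutation p = 0.456; rho = 0.13, p = 0.686; 1 relation, added after the data were seen). Of 8 markers of stratified squamous epithelium, the tissue where collagen XVII is known, 2 passed the filter. With the other 6 fitted without it, 5 of the 8 were positive and 3 negative in homozygous against control ileum (median log2 0.61, 0 called by edgeR), and likewise 5 and 3 in heterozygous against control ileum (median 0.10, 0 called).

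**Figure D3:**
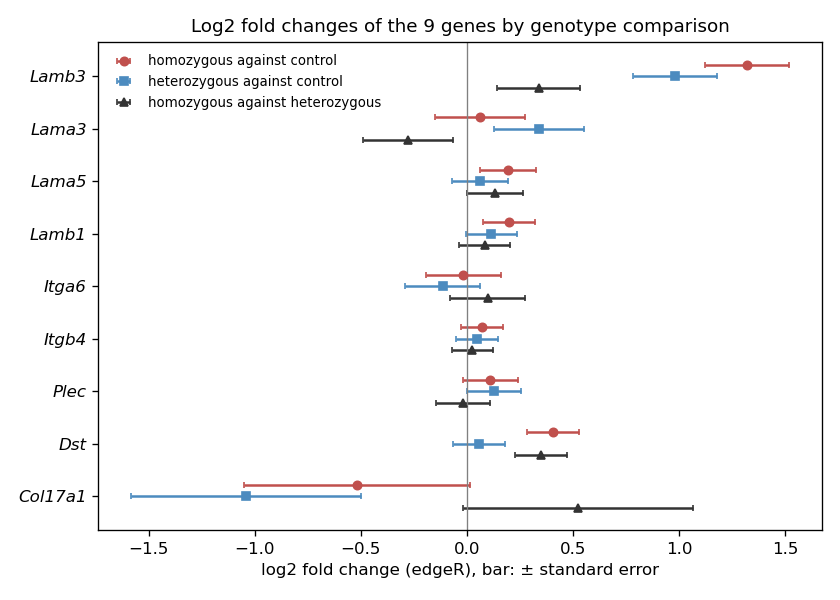
Log2 fold changes from the edgeR fits (horizontal axis) with bars for ± 1 standard error, for the 9 genes in homozygous against control, heterozygous against control and homozygous against heterozygous ileum. Lamb3 stands at 1.32 and 0.98 against control, Dst at 0.41 (homozygous) and 0.06 (heterozygous), and Col17a1, fitted without the filter, has the widest bars.

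By level per kilobase of exon, *Lamb3* moved up among the 9 genes. In controls the order was *Plec* (78.6 CPM per kb), *Itgb4* (46.2), *Itga6* (25.8), *Lamb3* (23.6), *Lamb1* (14.0), *Lama3* (12.8), *Lama5* (10.0), *Dst* (3.73) and *Col17a1* (0.187). In heterozygous ileum *Lamb3* (45.7 CPM per kb) stood just behind *Itgb4* (46.8), and in homozygous ileum it stood second (58.7) ahead of *Itgb4* (48.4). In controls the ranges of neighbours in this order overlapped from *Itga6* through *Lama5*, whereas *Plec*, *Itgb4*, *Dst* and *Col17a1* were each set apart from the next. In all 6 homozygous libraries *Lamb3* exceeded *Itgb4*, against 4 of 6 heterozygous and 0 of 6 control libraries. *Dst* and *Plec* sum many isoforms over their exons, so that their levels per kilobase depend on the length counted. *Lamb3*, *Itgb4* and *Itga6* also have several annotated transcripts (9, 10 and 9), so the order between these 3 genes depends on the length counted as well.

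Sex did not enter the choice of the genes, and the fit of genotype plus sex tested it. By edgeR 0 of the 8 genes were called between males and females, against 0.0554% of all genes, and DESeq2 called 0 as well. *Lamb3* was the 1 gene of the 8 with an unadjusted p under 0.05, beside 3.39% of all tested genes, being 1.32-fold higher in males (log2 0.40, SE 0.14, edgeR adjusted p = 0.998). The other 7 had log2 differences from -0.12 (*Itga6*) to 0.24 (*Lama3*). In controls the 3 females measured 104 to 142 CPM of *Lamb3* and the 3 males 160 to 215 CPM. In heterozygous ileum the 2 females measured 207 and 232 CPM and the 4 males 307 to 384 CPM. In homozygous ileum the 2 females (378 and 435 CPM) lay within the 4 males (324 to 491 CPM). The groups differed in their share of females, and with sex in the model the log2 differences of *Lamb3* from control were 1.31 in homozygous and 0.92 in heterozygous ileum.

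Relations between genes were examined after subtracting genotype means from log2 CPM, which removes the contrast that chose the genes (18 libraries, 36 pairs, 100000 permutations within genotypes). Sex was not subtracted, and its part in any relation given here was not tested. *Itgb4* and *Itga6*, the subunits of 1 heterodimer, varied together (r = 0.90, permutation p = 7e-05, adjusted p = 0.00216; Spearman rho = 0.81, p = 0.00075, adjusted p = 0.0140). Within genotypes r was 0.90 in control, 0.16 in heterozygous and 0.98 in homozygous libraries, and it was 0.83 once the 2 libraries most distant from the *Itgb4* median were left out (adjusted p = 0.0457). *Lama5* and *Lamb1*, which share a trimer, also varied together (r = 0.85, permutation p = 0.00012, adjusted p = 0.00216; rho = 0.76, p = 0.00078, adjusted p = 0.0140). Their r was 0.81, 0.91 and 0.78 within control, heterozygous and homozygous libraries, and 0.75 without the 2 farthest libraries (adjusted p = 0.0457).

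3 further pairs passed, but not without the 2 farthest libraries. *Itgb4* with *Plec* had r = 0.64 (permutation p = 0.00343, adjusted p = 0.0359; rho = 0.65, p = 0.00618, adjusted p = 0.0742) and r = 0.50 without them (adjusted p = 0.281). *Col17a1* went against *Itgb4* (r = -0.67, permutation p = 0.00607, adjusted p = 0.0437; rho = -0.44, p = 0.0968, adjusted p = 0.235), with r = -0.34 and an adjusted p of 0.292 without the 2 farthest libraries. *Col17a1* also went against *Itga6* (r = -0.66, permutation p = 0.00399, adjusted p = 0.0359; rho = -0.49, p = 0.0527, adjusted p = 0.180), with r = -0.40 and an adjusted p of 0.281 without them. On TMM log2 CPM over all 18 libraries these 3 pairs also passed (r = 0.70, -0.71 and -0.65, adjusted permutation p = 0.0259, 0.0259 and 0.0373). *Itga6* with *Plec* passed only there (r = 0.69, adjusted permutation p = 0.0259).

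*Lamb3* passed with none of the other 8 genes. Its r was 0.13 with *Lama3*, its partner chain (permutation p = 0.649, adjusted p = 0.731), being 0.74 within control, 0.02 within heterozygous and -0.66 within homozygous libraries, a difference that was not tested. In controls both genes were higher in every male than in every female (*Lama3* 137 to 180 against 100.8 to 126 CPM). The part of sex in the control r was not tested. With *Itgb4* its r was 0.45 (permutation p = 0.0398, adjusted p = 0.162). Of the rest, r was lowest with *Lama5* at -0.49 (permutation p = 0.0550, adjusted p = 0.172). Within genotypes *Lamb3* did not pass with *Ppara* either (r = -0.16, permutation p = 0.585, adjusted p = 0.787 over 72 relations with marker scores and *Ppara*). The 5 tested genes whose genotype-centred log2 CPM was most like *Lamb3* over the 18 libraries were *Pmp22* (r = 0.82), *Endod1* (r = 0.73), *Fa2h* (r = 0.73), *Susd2* (r = 0.72) and *Hmgcs1* (r = 0.72), picked as the highest of 12643. Among those 12643 genes *Itgb4* ranked 222, *Itga6* 544 and *Lama3* 2265 by likeness to *Lamb3*.

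**Figure D4:**
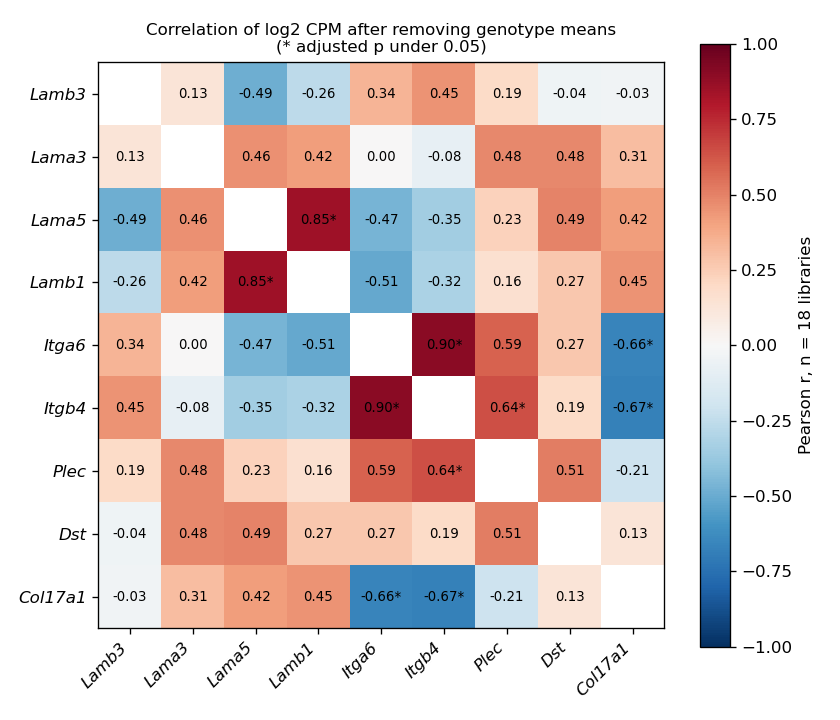
Pearson r between the 9 genes over 18 libraries after removal of genotype means, colour from -1 (blue) to 1 (red), with asterisks where the adjusted permutation p is under 0.05. Itgb4 with Itga6 (0.90) and Lama5 with Lamb1 (0.85) are the strongest pairs, and the Lamb3 row has no asterisk.

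Some of the 9 genes varied with marker scores of other cell types in the tissue. *Lama5* varied with the endothelial score (r = 0.84, permutation p = 4e-05, adjusted p = 0.00288; rho = 0.85, p = 6e-05, adjusted p = 0.00252) and against the epithelial score (r = -0.73, permutation p = 0.00051, adjusted p = 0.0122; rho = -0.84, p = 7e-05, adjusted p = 0.00252). The first was 0.83, 0.92 and 0.90 within control, heterozygous and homozygous libraries, and both held without the 2 farthest libraries (r = 0.76 and -0.73). *Lamb1* varied with the endothelial score as well (r = 0.78, permutation p = 0.00048, adjusted p = 0.0122; rho = 0.74, p = 0.00147, adjusted p = 0.0222), with r = 0.67 and an adjusted p of 0.104 without the 2 farthest libraries. *Itga6* went against the endothelial score (r = -0.64, permutation p = 0.00203, adjusted p = 0.0314; rho = -0.73, p = 0.00185, adjusted p = 0.0222), with r = -0.62 and an adjusted p of 0.0929 without them. *Lama5* and *Lamb1* each had r = 0.68 with the fibroblast score (permutation p = 0.00308 and 0.00374, adjusted p = 0.0370 and 0.0385; rho = 0.72 and 0.69), and both fell to 0.57 without the 2 farthest libraries and no longer passed. On TMM log2 CPM these 2 relations did not pass either (adjusted permutation p = 0.096 and 0.098). *Itgb4* passed against the endothelial score only there (r = -0.67, adjusted permutation p = 0.038). *Lama5* with the neuron and glia score passed by rank only (rho = 0.73, permutation p = 0.00160, adjusted p = 0.0222; r = 0.46, permutation p = 0.0599, adjusted p = 0.254). The B cell scores fell into 2 clusters of libraries, so no r over all 18 libraries is given with them, although they were counted in the adjustment over 72. Of the 9 genes *Col17a1* alone passed with the B cell score over the 18 libraries, by Pearson's r and not by rank, and its value within the 14 libraries of low score is given above. For *Lamb3* the largest r with an epithelial, wall, endothelial or neural score was -0.48, with the endothelial score (permutation p = 0.0897, adjusted p = 0.307).

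**Figure D5:**
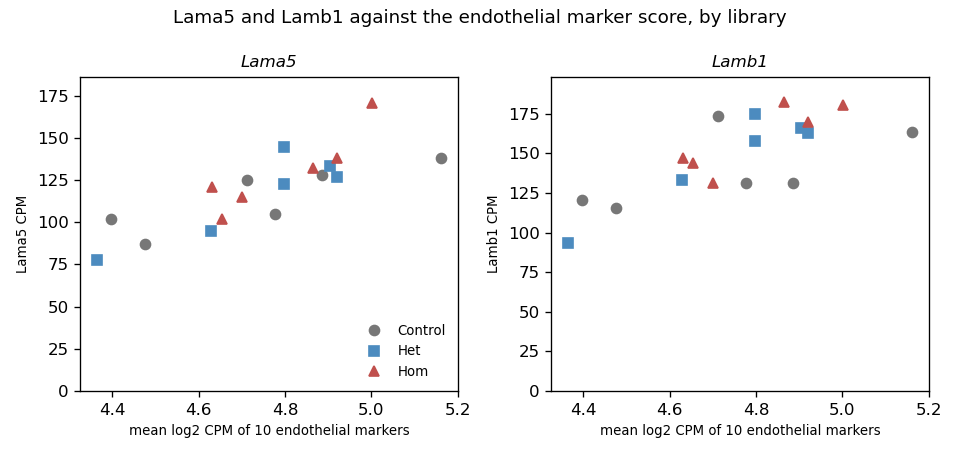
CPM of Lama5 and Lamb1 (vertical axes from 0) against the mean log2 CPM of 10 endothelial markers, 1 point per library, with circles for control, squares for heterozygous (Het) and triangles for homozygous (Hom). Both genes are higher in libraries with a higher score, with r of 0.84 and 0.78 after removal of genotype means.

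Other genes of the pathway were listed by role, 83 in all, and 79 were tested. By edgeR 0 of the 79 were called in homozygous against control ileum (5 at an unadjusted p under 0.05, 0 called by DESeq2), beside 0.411% of all tested genes called and 8.06% at an unadjusted p under 0.05. In heterozygous against control ileum 0 were called (0 at an unadjusted p under 0.05, 0 by DESeq2), beside 0.293% and 5.29% of all tested genes. In homozygous against heterozygous ileum 0 were called (5 at an unadjusted p under 0.05, 0 by DESeq2), beside 0.00791% and 7.61%. At the shares called, under 1 gene of 79 would be called, so counts of 0 are near the background. With the limit that the study used (0.001, unadjusted), 0 of the 79 passed in any of these 3 comparisons. By DESeq2, 10 of the 79 had an unadjusted p under 0.05 in homozygous against control ileum, beside 1112 of all 12645 tested genes. That count was 0 (beside 725) in heterozygous against control and 7 (beside 1132) in homozygous against heterozygous ileum. The 6 other laminin chains examined had a median log2 difference of 0.29 between homozygous and control ileum, beside -0.0048 over all tested genes, and 6 of 6 were positive. They were *Lama1* (log2 0.06, SE 0.18), *Lama2* (0.22, SE 0.18), *Lama4* (0.35, SE 0.18), *Lamb2* (0.42, SE 0.26), *Lamc1* (0.22, SE 0.15) and *Lamc3* (0.50, SE 0.31), with a lowest adjusted p of 0.644. In the same comparison the log2 differences were positive for 10 of 10 smooth muscle markers (median 0.57), 10 of 10 fibroblast markers (median 0.35) and 8 of 8 enteric neuron and glia markers (median 0.58), and their part in the laminin chain values was not tested. In heterozygous ileum the median of the 6 chains was 0.0017 and 3 of 6 were positive.

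The remaining groups are given by their medians. Between homozygous and control ileum the median log2 difference was 0.09 over 19 other basement membrane components, 0.18 over 16 other laminin receptors and integrins, and 0.30 over 8 laminin processing enzymes. It was -0.06 over 7 keratins, the filaments to which plectin binds, 0.03 over 13 desmosome and plakin genes and 0.05 over 10 integrin adaptors. The part of the wall markers given above in these medians was not tested either.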

How the data were processed

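Poly-A selected RNA of 18 whole-thickness ileum samples was sequenced as paired reads. The authors aligned reads with STAR to GRCm38 and deposited counts per gene of uniquely assigned reads from featureCounts, with FPKM values beside them that were not used here, and a table of CPM that equals each count scaled by its library total. No strand-marking step is given in the sources used here. Here genes with CPM above 3 in at least 4 libraries were kept (13709, of which 12645 protein-coding were tested). Counts were fitted with edgeR 4.0.16 quasi-likelihood tests (TMM, 1 coefficient per genotype, Benjamini-Hochberg, threshold 0.05), with sex added for the sex test, and with DESeq2 1.42.0 as an alternative. A deposited table of log2 CPM moderated by the authors was not used. On simulated data with 200 genes changed by log2 1, homozygous against control, 183 were recovered with 9 false calls. Those counts were drawn independently for each gene, without the differences in wall and B cell content between these libraries. The simulation thus checked the procedure and did not measure the power of the fits above. Relations used log2 CPM (prior count 2). SEs come from the quasi-likelihood statistic. Litters are not given per mouse, so p-values measure the spread between these 18 mice.

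The 9 genes and all lists were chosen with earlier results of these data known, and 1 listed gene is not reported here. Genes named are all 9, *Ppara*, list genes with an adjusted p under 0.05, every laminin chain examined and the 5 genes most like *Lamb3*; *Xist* and *G0s2* were chosen after their values were seen. Alternatives were normalization, filter, gene set, sex, block, tool and leaving out libraries.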

Additional observations from a re-analysis of the deposited data

Results flagged for a closer look

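Among 48 combinations of 16 genes (the 9, 6 other laminin chains and *Ppara*) and 3 groups, 1 held a library far from the other 5 of its group by Dixon's test, whose 95% limit marks about 1 group in 20 by chance. *Lamc3*, a γ chain gene that is not a member of laminin-332, reached 14.0 CPM in heterozygous replicate 6, where the next library had 8.97 CPM.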

How the results depend on the processing

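None of the 675 fold changes by genotype under an alternative moved by 1 SD of the libraries or changed the sign of a called value (3 of them are *Col17a1* without the 4 libraries rich in B cell markers, the rest the 8 genes tested). Of the 24 fold changes of those 8, 10 that were not called, none above 0.115 in size, turned sign on leaving out a library, among them *Dst* (-0.032 to 0.13), *Lama5* (-0.017 to 0.15) and *Itga6* (-0.18 to 0.0011) in heterozygous and *Itga6* (-0.15 to 0.0996), *Itgb4* (-0.0076 to 0.15) and *Lama3* (-0.022 to 0.15) in homozygous against control ileum. *Lamb3* stayed between 1.23 and 1.45 (log2, homozygous against control), 0.89 and 1.11 (heterozygous against control), 0.24 and 0.41 (homozygous against heterozygous) and 0.34 and 0.51 (males against females) on leaving out each library. The number of the 8 genes called was then 1 to 2, 0 to 1, 0 and 0 in those comparisons, and of all genes 43 to 65, 25 to 53, 0 to 2 and 7 to 8. In heterozygous against control ileum 0 of the 8 were called with only the 12 libraries (23 genes in all), the replicate block (22 in all) and without the 4 libraries of highest B cell score (15 in all). The replicate numbers did not pair the libraries (same-number correlations -0.606 to 0.642), and with the replicate block *Lamb3* was 1.00 (log2, heterozygous against control). DESeq2 called 136, 82 and 9 genes in the 3 genotype comparisons, against 52, 37 and 1 by edgeR. Without the 4 libraries of highest B cell score, chosen after the data were seen, 31 were called in homozygous against control ileum. Homozygous against heterozygous ileum gave 0 with all biotypes, DESeq2 size factors, no filter, the 12 libraries, the replicate block, sex or the smooth muscle score as a covariate, and without those 4 libraries. Without the 2 farthest libraries 2 of 5 pairs and 2 of 6 score relations passed (the B cell score left out). On TMM log2 CPM 6 pairs and 5 score relations passed, the B cell score again left out. There 0 of the 5 pairs and 2 of the 6 score relations were lost, and 1 of each passed only there. Signs turned for *Lamb3* with *Lama3* (r = -0.0059) without the 2 farthest libraries, for *Lamb3* with *Dst* on TMM log2 CPM (r = 0.0217), and for *Lamb1* between sexes by library size (log2 0.000884), and the cause was not tested. On leaving out each library the sex differences of *Itgb4* ranged from -0.086 to 0.0094, of *Plec* from -0.082 to 0.035, of *Lama5* from -0.12 to 0.015 and of *Lamb1* from -0.069 to 0.038 (log2). Depth limits *Col17a1*, with as few as 6 reads.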

Other observations

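*Lamb3* was higher in every male than in every female among controls and among heterozygous mice, while the sexes overlapped in homozygous mice. An interaction fit, added after these values were seen, gave a male to female log2 difference that was lower by 0.81 in homozygous than in control mice (edgeR log2 -0.81, SE 0.27, unadjusted p = 0.00881, adjusted p = 1.00), and it failed the correction over all genes. The same difference between heterozygous and control mice was 0.01 (SE 0.27, adjusted p = 0.997).

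*G0s2*, an inhibitor of adipose triglyceride lipase, overlaps the *Lamb3* range of the count files on the opposite strand and shares 0 exon bases with *Lamb3*. That range begins at 193207699, before the RefSeq start at 193301993, so the overlap depends on the annotation used. It was not called in homozygous against control ileum (log2 0.35, SE 0.45, edgeR adjusted p = 0.889).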
